A study of Mus musculus with 15 samples.

Results

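Tumours from the colon of double mutant mice were compared with the colon of wild type mice. The double mutants were labelled APC+/-/Olfm4-/-, heterozygous for an Apc mutation and homozygous for an Olfm4 mutation. The comparison used 6 of the 15 arrays of the series, namely the 3 whose titles mark them as tumour and the 3 whose genotype label is wild type. Every mouse was a male of 3 months, and the cohorts were littermates from a mixed background of the strains C57BL/6 and 129. By the animal numbers in the titles, tumour replicate 1 came from 1 animal and tumour replicates 2 and 3 from another, so the 3 tumour arrays stand for 2 animals, while the wild type arrays stand for 3. Colon beside the tumours of the same 2 animals gave 3 further arrays, called adjacent here, with replicate 1 from the first animal and replicates 2 and 3 from the second. Arrays of APC mutant mice, APC+/-/OLFM4(+/+), and of Olfm4 mutant mice, APC+/+/Olfm4-/-, made up the other groups, with 3 arrays each. No Apc allele, method of Olfm4 disruption or dissection of tumour from colon wall is given in the sources used here. Both mutations and the tumour state differ together between the groups and cannot be told apart.

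APC is a scaffold of the complex that marks beta-catenin for destruction. Where that complex fails, beta-catenin accumulates, enters the nucleus and acts with TCF and LEF proteins on the genes that Wnt signals switch on. In the colon these signals are strongest at the crypt base, where stem cells divide, and fade towards the surface, where absorptive, mucus-secreting and hormone-secreting cells lie. OLFM4 is a secreted glycoprotein known from crypt base cells and from granules of neutrophils.

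Levels are log2 RMA values of 1 probe set per gene, and levels of different genes are not compared with each other. A difference is the tumour mean minus the wild type mean on that log2 scale, and its standard error (SE) and Benjamini-Hochberg adjusted p come from limma. Genes with an adjusted p under 0.05 are said to have risen or fallen. By this rule 49.4% of 18193 genes were called, of which 5334 (29.3% of all) rose and 3662 (20.1%) fell. Differences of at least 2-fold made up 25.3% of all genes, with 14% that rose and 11.2% that fell. All 3 tumour arrays lay above all 3 wild type arrays for 33.3% of genes and below them for 21.9%. The 3 tumour arrays lay above all 12 other arrays for 17.2% of genes and below all of them for 12.2%. These shares are the background of the counts given for gene lists, and the median difference over all genes was 0.11.

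Control RNAs differed between the groups as well. Bacterial RNAs added before labelling (dap, lys, phe and thr) have probe sets at the 3-prime and at the 5-prime end, and the mean log2 difference between the ends was 1.99 ± 0.0832 (SD, n = 3) in wild type and 5.01 ± 0.255 (SD, n = 3) in tumour. The groups did not overlap, and adjacent arrays lay between them at 4.10 ± 0.300 (SD, n = 3). For Gapdh the 3-prime probe set stood at 14.08 in wild type and 14.20 in tumour, while the 5-prime probe set stood at 13.49 and 9.62. For Actb the 3-prime probe set was lower as well, at 13.61 in wild type, 12.11 in adjacent tissue and 12.16 in tumour. The 5-prime probe set of Actb stood at 12.46, 8.71 and 7.87 in these groups. Controls added at hybridisation (bioB, bioC, bioD and cre) had a mean difference of 0.148 in wild type and 0.128 in tumour. Signal from 5-prime ends was thus lower in the tumour arrays, and this difference and the tumour state cannot be told apart. The array numbers in the descriptions also run by group, 1 to 3 for wild type and 13 to 15 for tumour. With the bacterial difference as a covariate 1 gene, Car4, was called, and the median SE of the called genes rose from 0.197 to 0.743.

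**Figure D1:**
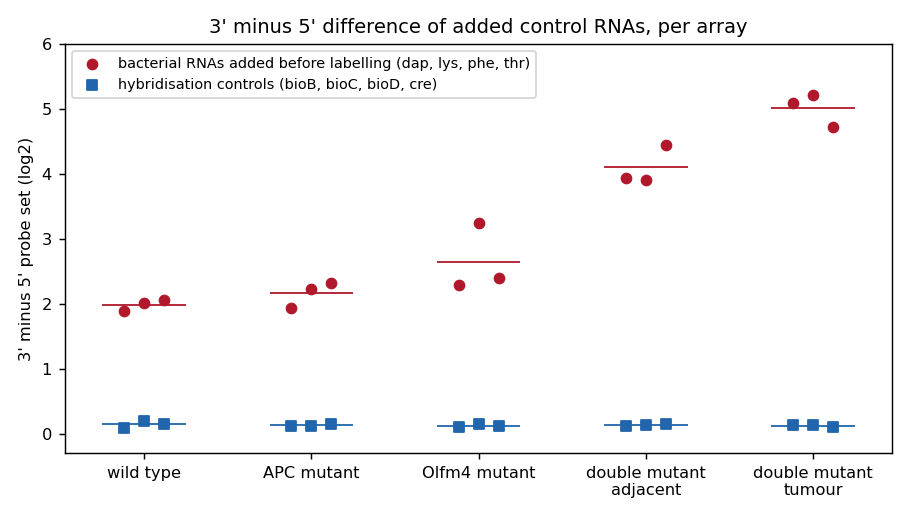
Difference between 3-prime and 5-prime probe sets (log2, vertical axis) of control RNAs for each of the 15 arrays, by group. Points are arrays and lines are group means. The bacterial RNAs rise from 1.99 in wild type to 5.01 in tumour, and the hybridisation controls stay between 0.128 and 0.148 in the group means.

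Single arrays also stood apart. Adjacent replicate 3 held intermediate levels of many genes that were high in tumour, such as Lect2, a secreted chemotactic protein, at 10.33 against 5.88 and 5.82 in the other adjacent arrays. Among the 2554 genes that rose at least 2-fold, the shift of adjacent tissue from wild type was a median share of 0.426 of the tumour's shift, or 0.394 without adjacent replicate 3 and 0.516 in that array alone. For the 2044 genes that fell at least 2-fold the shares were 0.375, 0.363 and 0.430. The bacterial control difference of adjacent tissue was 0.699 of the tumour's, or 0.641 without replicate 3. Wild type replicate 1 had more signal from smooth muscle and nerve genes than the other wild type arrays. Of all genes, 10.4% differed at least 2-fold between wild type replicates 1 and 2 and 3.80% between replicates 2 and 3. Among tumour arrays the corresponding shares were 4.05% and 4.73% between the animals and 1.70% between the arrays of 1 animal.

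Some genes known from all gut epithelium were followed as a check of the tissue. Krt8, a keratin of simple epithelia, had levels of 14.14, 14.16 and 14.28 in wild type and 14.19, 14.18 and 14.11 in tumour, a difference of -0.04 (SE 0.08). Epcam, an adhesion protein of epithelial cells, was at 13.84, 13.90 and 13.92 in wild type and 13.70, 13.62 and 13.53 in tumour. It fell by 0.27 (SE 0.08, adjusted p = 0.0166 in limma), and without tumour replicate 3 the difference of -0.23 had an adjusted p of 0.0687. Vil1, the microvillus protein villin, fell by 0.49, and the E-cadherin gene Cdh1 had a difference of -0.03. Each of these differences was under 2-fold.

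Of the mutated genes, Olfm4 could not be followed. Its probe set read 3.00, 3.14 and 3.07 in wild type and 3.13, 3.32 and 3.13 in tumour, near the lowest value of the table, 2.56, in every group, so it does not check the genotype label. Apc has 4 probe sets, which disagreed. With wild type levels of 10.18 and 10.44, 2 of them rose by 1.01 and 0.45, and with wild type levels of 8.43 and 6.62 the others fell by 2.21 and 0.51. Adjacent tissue differed from wild type in the same direction for each.

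Genes that Wnt signals switch on stood higher in tumour. Of the 22 measured genes in a list of Wnt/beta-catenin targets, 17 rose, 16 of them at least 2-fold, and none fell. The median difference was 2.62, against 0.36 in adjacent replicates 1 and 2. The tumour arrays lay above all 12 other arrays for 17 of the 22. TCF and LEF proteins bind a short motif, searched here as CTTTGAA or CTTTGAT on both strands in RefSeq promoters of build GRCm38.p6 that run from 250 bases before to 50 bases after a gene's start. It occurred in 3 of the 11 risen targets with a promoter in the table (27.3%) and in 9.88% of all 27025 genes. A motif of the factor HNF4, searched as CAAAGTCCA on both strands, occurred in 0 of these 11 targets, in 1 of 11 fallen absorptive genes with a promoter (9.09%) and in 0.555% of all genes. For each of the 3 risen targets with the TCF and LEF motif 1 promoter is shown, and risen targets without a match are not shown. Capitals mark the motif, read as ATCAAAG where it lies on the other strand, and a match is a description of the letters and not a known site.
Sp5 (chr2:70474673-70474972, + strand): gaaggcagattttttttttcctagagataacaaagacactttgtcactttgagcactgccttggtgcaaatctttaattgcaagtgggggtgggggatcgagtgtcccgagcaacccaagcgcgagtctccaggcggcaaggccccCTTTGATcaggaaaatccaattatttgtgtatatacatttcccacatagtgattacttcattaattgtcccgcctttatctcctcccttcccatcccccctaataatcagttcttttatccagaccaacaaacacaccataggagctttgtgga
Tnfrsf19 (chr14:61037938-61038237, - strand): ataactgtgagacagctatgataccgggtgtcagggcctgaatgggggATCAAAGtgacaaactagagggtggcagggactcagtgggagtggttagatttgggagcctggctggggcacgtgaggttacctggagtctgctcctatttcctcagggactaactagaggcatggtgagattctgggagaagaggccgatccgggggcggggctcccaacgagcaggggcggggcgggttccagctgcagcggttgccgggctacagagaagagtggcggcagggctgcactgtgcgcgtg
Mmp7 (chr9:7691840-7692139, + strand): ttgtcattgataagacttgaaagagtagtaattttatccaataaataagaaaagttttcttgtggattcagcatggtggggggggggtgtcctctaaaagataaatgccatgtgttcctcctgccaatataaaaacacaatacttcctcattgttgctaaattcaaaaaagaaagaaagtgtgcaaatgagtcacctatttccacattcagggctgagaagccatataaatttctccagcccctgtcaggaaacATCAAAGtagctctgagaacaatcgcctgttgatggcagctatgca
The match began 104 bases before the start of Sp5, 202 bases before that of Tnfrsf19 and at base 5 of the Mmp7 transcript, which is 247 bases before a second listed start of Mmp7. Sp5 encodes a zinc finger transcription factor that Wnt signals induce. Its levels were 5.79, 6.28 and 6.02 in wild type, 6.50, 6.29 and 8.14 in adjacent tissue and 10.68, 11.15 and 11.53 in tumour, a difference of 5.10 (SE 0.38, adjusted p = 6.01e-07 in limma). Tumour arrays were higher than every other array, and adjacent replicate 3 was the nearest to them. Tnfrsf19, a TNF receptor family member of crypt stem cells, had levels of 7.08, 6.33 and 5.16 in wild type and 8.70, 9.78 and 9.74 in tumour. The groups did not overlap (difference 3.22, SE 0.44, adjusted p = 6.13e-05 in limma). Mmp7, the secreted protease matrilysin, had levels of 6.80, 8.07 and 7.19 in wild type and 12.90, 13.39 and 13.27 in tumour. Its adjacent arrays 1 and 2 read 7.19 and 7.20, within the wild type range, and adjacent replicate 3 read 11.60.

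Among the Wnt ligands themselves, 10 of 19 measured genes rose, 4 of them at least 2-fold, and 1 fell. Wnt10a was at 5.29, 5.22 and 5.19 in wild type and at 12.66, 12.67 and 12.75 in tumour. Arrays of each of these groups lay close together, while the adjacent arrays spread over 6.17, 5.35 and 7.89. Wnt6 had levels of 6.78, 6.71 and 6.99 in wild type and 9.51, 9.53 and 10.10 in tumour (difference 2.89, SE 0.24, adjusted p = 1.28e-06 in limma). Wnt5b, a ligand of beta-catenin-independent signalling, rose by 1.54 and Wnt3, a ligand known to maintain crypt stem cells, by 1.29, from low wild type levels of 4.00, 3.96 and 3.74. Wnt16, Wnt7a, Wnt5a, Wnt9b, Wnt9a and Wnt7b rose by 0.44 to 0.89, and Wnt8b fell by 0.67. Of these, 3 did not pass the test without some single arrays. Wnt5a had an adjusted p of 0.0964 in limma without wild type replicate 1 (difference 0.49) and 0.0807 without tumour replicate 2 (0.70). Wnt9a had 0.0889 without wild type replicate 2 (difference 0.62), 0.141 without wild type replicate 3 (0.47) and 0.134 without tumour replicate 1 (0.50). Wnt8b had 0.0662 to 0.198 without wild type replicate 1 or 3 or tumour replicate 1 or 2, with differences of -0.41 to -0.73. Wnt9b still passed without each array, but its difference was 0.53 without tumour replicate 2. Several canonical ligands did not pass the test, with a difference of 0.04 for Wnt1, 0.05 for Wnt3a and -0.06 for Wnt2b.

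Extracellular and intracellular inhibitors of the pathway, several of which are themselves Wnt targets, made up a list of 18 genes of which 10 rose, all at least 2-fold, and 3 fell. Wif1, a secreted protein that binds Wnt ligands, read 4.36, 3.98 and 4.16 in wild type, 6.15, 5.95 and 9.89 in adjacent tissue and 12.02, 11.91 and 11.96 in tumour. The 3 tumour arrays lay close together and above all adjacent arrays. Notum, an enzyme that strips the lipid from Wnt ligands, read 5.49, 5.94 and 5.90 in wild type and 11.12, 11.06 and 11.57 in tumour (difference 5.47, SE 0.45, adjusted p = 1.23e-06 in limma). Apcdd1, a membrane inhibitor of Wnt signals, rose by 5.49 and Nkd1, which acts on Dishevelled inside the cell, by 4.79. Axin2, a subunit of the destruction complex and a standard readout of beta-catenin activity, read 10.57, 10.57 and 11.01 in wild type, 10.35, 10.50 and 10.91 in adjacent tissue and 12.48, 12.43 and 12.76 in tumour. Adjacent tissue overlapped with wild type, and tumour lay above both (difference 1.84, SE 0.17, adjusted p = 3.32e-06 in limma). The ubiquitin ligases Znrf3 and Rnf43, which remove Frizzled receptors, rose by 2.66 and 2.59, and the secreted inhibitors Dkk2 and Dkk3 by 3.70 and 1.58. Against this direction Sfrp1 fell by 1.10, Nkd2 by 1.18 and Sostdc1 by 0.87. Nkd2 had a difference of -0.53 and an adjusted p of 0.0687 in limma without wild type replicate 1, and its adjusted p was 0.0563 to 0.0747 without any 1 tumour array. Each of the 3 that fell is an inhibitor of the pathway too.

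Receptors, the destruction complex and nuclear partners moved less. Of 27 measured genes 11 rose and 5 fell, with a median difference of 0.22. The nuclear partners went opposite ways. Lef1, which binds DNA beside beta-catenin, read 7.03, 7.14 and 8.04 in wild type, 8.65, 9.15 and 9.48 in adjacent tissue and 11.65, 11.85 and 12.06 in tumour. The 3 groups did not overlap, and tumour differed from wild type by 4.45 (SE 0.31, adjusted p = 3.89e-07 in limma). Tcf7l2, the TCF factor of normal gut epithelium, read 12.05, 11.83 and 12.37 in wild type and 10.80, 11.09 and 10.88 in tumour, and fell by 1.16. Its other probe sets fell by 2.52 to 4.18. The one that fell by 4.18 averaged 8.52 in wild type, 5.20 in Olfm4 mutants, 3.96 in adjacent tissue and 4.34 in tumour. The one that fell by 4.11 averaged 8.74, 5.52, 4.77 and 4.63 in these groups, and the one that fell by 2.52 averaged 8.65, 8.22, 7.72 and 6.13. Among Frizzled receptors Fzd6, Fzd10 and Fzd3 rose by 2.44, 1.89 and 1.04, while Fzd5, a receptor of normal crypts, fell by 1.55. Ctnnb1, the gene of beta-catenin, had a difference of 0.19 (adjusted p = 0.0977 in limma) at its kept probe set, and its other probe sets fell by 0.67 and 2.04. Lgr6, a receptor for R-spondin, was not on a Wnt list but was among the largest increases. It read 5.74, 5.22 and 5.33 in wild type and 11.57, 12.22 and 11.61 in tumour.

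**Figure D2:**
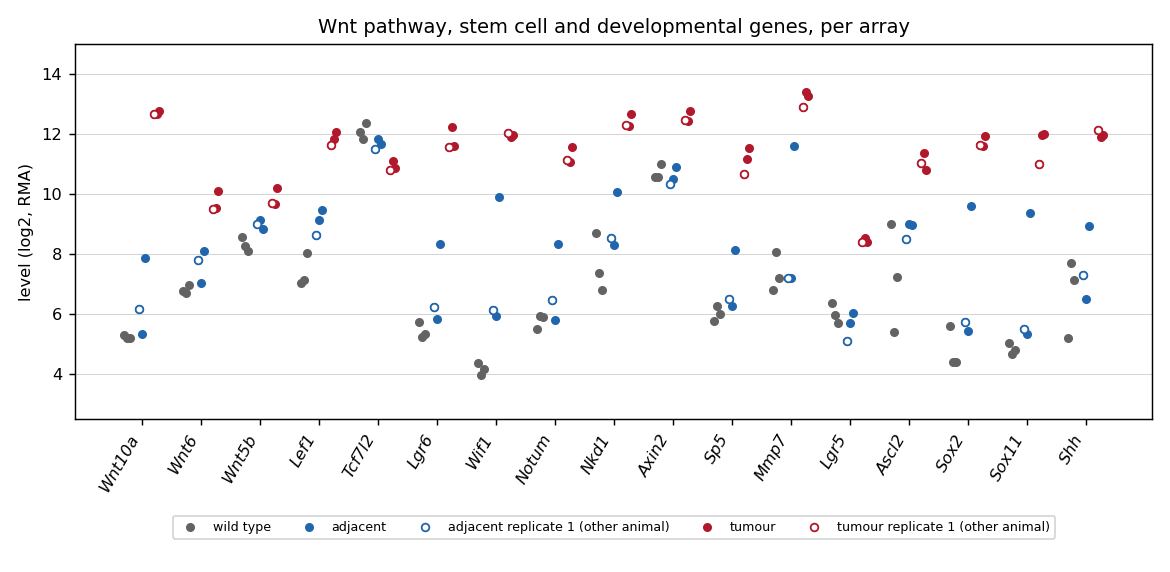
Level (log2 RMA, vertical axis) of Wnt pathway, stem cell and developmental genes in the 3 wild type, 3 adjacent and 3 tumour arrays. Points are arrays and open circles mark replicate 1 of the double mutant groups, which comes from the other animal. Tumour arrays lie above the other arrays except for Tcf7l2, where they lie lower, and adjacent replicate 3 is the highest adjacent array for most genes, for example 9.89 for Wif1.

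Crypt stem cell genes were mostly higher. Of 19 measured, 12 rose, 10 of them at least 2-fold, and 1 fell, and the tumour arrays lay above all 12 others for 12. Lgr5, the R-spondin receptor that marks crypt base stem cells, read 6.36, 5.99 and 5.72 in wild type, 5.11, 5.72 and 6.05 in adjacent tissue and 8.41, 8.53 and 8.42 in tumour. Adjacent tissue overlapped with wild type, and tumour exceeded both (difference 2.43, SE 0.23, adjusted p = 3.28e-06 in limma). Ascl2, the transcription factor of these cells, varied in wild type with 8.99, 5.40 and 7.23 and was at 11.03, 11.37 and 10.81 in tumour. Tert, the catalytic subunit of telomerase, read 4.20, 4.05 and 4.00 in wild type, 4.83, 4.92 and 4.96 in adjacent tissue and 7.65, 7.80 and 7.62 in tumour. No array overlapped between these 3 groups. At another probe set of Tert the difference was 0.27 and did not pass the test. The RNA-binding proteins Msi1 and Mex3a rose by 3.81 and 3.62, Smoc2, a matrix protein of stem cells, by 3.05 and the chromatin protein Bmi1 by 1.41. The other probe sets of Msi1 had differences of 0.09 and -0.08 and did not pass the test. Aqp4, a water channel, was the member that fell, by 1.85. The growth regulator Lrig1 did not pass the test, with a difference of 0.04.

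Other classical beta-catenin targets changed by less than Sp5 or Mmp7. Ccnd1, cyclin D1, read 11.88, 11.78 and 11.25 in wild type and 12.53, 12.57 and 12.54 in tumour, and rose by 0.91 (SE 0.18, adjusted p = 0.000811 in limma). Myc, a regulator of growth, read 7.65, 8.34 and 8.46 in wild type and 9.14, 9.33 and 8.74 in tumour. Its arrays did not overlap, but its difference of 0.92 (SE 0.39) had an adjusted p of 0.0671 in limma and adjacent replicate 1 read 9.29. Cd44, a hyaluronan receptor, rose by 1.54 at its kept probe set and fell by 1.15 at its most variable one, and Ephb3, a receptor that sorts cells along the crypt, rose by 2.07.

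Genes of DNA replication rose together. Of 22 measured, 20 rose, 15 of them at least 2-fold, none fell, and the median difference was 1.34, or 0.29 with the control covariate. Mcm2, part of the replicative helicase, read 9.36, 9.19 and 9.18 in wild type and 11.18, 11.41 and 11.41 in tumour (difference 2.09, SE 0.20, adjusted p = 3.37e-06 in limma). All of Mcm2 to Mcm7 rose, by 0.93 for Mcm4 to 2.09 for Mcm2. Mcm4 had a difference of 0.85 and an adjusted p of 0.052 in limma without wild type replicate 1, and of 0.82 and 0.0643 without tumour replicate 2. Cdc6, which loads the helicase, rose by 2.27. Of 19 mitosis genes 14 rose and none fell, and Cenpf and Cdc20 rose by 2.20 and 2.19. The proliferation marker Mki67 did not pass the test, with levels of 11.93, 11.71 and 11.13 in wild type and 12.32, 11.78 and 11.45 in tumour. Survivin, Birc5, had a difference of -0.02. The median of the mitosis list, 1.27, was -0.27 with the control covariate.

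Transcription factors of other developing tissues were among the largest increases. In a list of 16 measured Sox genes and other developmental transcription factors, 12 rose, 9 of them at least 2-fold, and 1 fell. Sox2, a factor of stomach, oesophagus and nervous system, read 5.60, 4.41 and 4.42 in wild type, 5.73, 5.44 and 9.59 in adjacent tissue and 11.64, 11.62 and 11.94 in tumour. Adjacent replicates 1 and 2 were close to wild type and replicate 3 was not. Sox11, a factor of neural progenitors, has 6 probe sets, and all 6 rose, by 2.89 to 8.08. Sox17, an endoderm and vessel factor, rose by 4.32, Sox21 by 3.65, Sox4 by 2.92 (with a difference of -0.45 at its most variable probe set) and Tbx3 by 4.18. Onecut2, a factor of liver and neuroendocrine cells, read 3.90, 3.65 and 3.76 in wild type and 10.18, 9.60 and 9.79 in tumour (difference 6.08, SE 0.47, adjusted p = 7.53e-07 in limma). Gata5, an endodermal factor, read 5.60, 5.50 and 6.04 in wild type and 10.88, 11.01 and 10.73 in tumour, and was the 1 member of 15 intestinal identity factors that rose.

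Factors that hold intestinal identity were lower. Of the 15 measured, 10 fell, 9 of them at least 2-fold, and the tumour arrays lay below all 12 others for 10. The median difference was -1.13 in tumour, 0.07 in adjacent replicates 1 and 2 and 0.05 in adjacent replicate 3. Cdx1 and Cdx2 are homeobox factors that specify intestine. Cdx2 read 12.47, 13.63 and 13.47 in wild type, 12.77, 12.26 and 12.93 in adjacent tissue and 10.37, 9.80 and 9.57 in tumour, a fall by 3.28 (SE 0.29, adjusted p = 2.33e-06 in limma). Its second probe set fell by 2.71, but there adjacent tissue was nearer to tumour, with means of 7.86 in wild type, 5.80 in adjacent tissue and 5.15 in tumour. Cdx1 read 12.23, 11.90 and 11.72 in wild type, 10.80, 10.80 and 10.65 in adjacent tissue and 8.60, 8.61 and 8.45 in tumour, so that the 3 groups formed 3 separate levels. Klf4, which promotes exit from the cell cycle, fell by 2.45 and the vitamin D receptor Vdr by 2.18. Hnf4a, a factor of all gut epithelium, read 13.42, 13.59 and 13.59 in wild type and 13.32, 13.31 and 13.24 in tumour, and it fell with an adjusted p of 0.0402 in limma, which was 0.0641 to 0.113 without any 1 of the arrays other than wild type replicate 1. The difference was -3.40 for Cdx1 and -0.24 for Hnf4a. Homeobox genes of the posterior body went both ways, with 4 of 13 risen (Hoxa9 by 1.55) and 3 fallen (Hoxb9 by 1.84). These shares of 30.8% and 23.1% were close to those of all genes, 29.3% and 20.1%.

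The transport machinery of the absorptive surface cells was much lower in tumour. Of 20 measured genes of absorptive colonocytes 17 fell, each at least 2-fold, none rose, and for 16 the tumour arrays lay below all 12 others. In a bulk sample fewer cells of a type and less RNA per cell cannot be told apart. Car4, a carbonic anhydrase of the surface membrane, read 13.80, 13.80 and 13.79 in wild type, 13.64, 13.73 and 13.70 in adjacent tissue and 10.39, 10.52 and 10.06 in tumour (difference -3.48, SE 0.11, adjusted p = 3.82e-09 in limma). Slc26a3, the chloride and bicarbonate exchanger, read 13.50, 13.42 and 13.67 in wild type, 13.36, 13.08 and 13.27 in adjacent tissue and 10.43, 9.10 and 8.69 in tumour. All 4 of its probe sets fell, by 4.13 to 6.54. At these kept probe sets the adjacent arrays were far closer to wild type than to tumour. At another probe set of Slc26a3 the mean was 10.23 in wild type, 7.30 in adjacent tissue and 5.12 in tumour, nearer to tumour. Slc9a2, a sodium and proton exchanger, took an intermediate level in adjacent tissue: 12.04, 12.39 and 12.10 in wild type, 10.79, 10.89 and 10.70 in adjacent tissue and 8.43, 8.03 and 8.04 in tumour. Slc5a8, a butyrate transporter, and Hsd11b2, which inactivates glucocorticoids, fell by 2.37 and 2.23. Scnn1a, a subunit of the sodium channel, fell by 1.34, and the subunit Scnn1g, with a difference of -0.60, did not pass the test.

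Enzymes that process drugs and other foreign compounds showed a similar fall, with 14 of 19 measured genes lower, 13 of them at least 2-fold, and 2 higher. Cyp2c55, a cytochrome P450 of colon, read 12.18, 12.57 and 12.47 in wild type, 11.17, 11.59 and 11.73 in adjacent tissue and 6.74, 5.43 and 5.77 in tumour. It had the largest fall among all 18193 genes, by 6.43 (SE 0.35, adjusted p = 4.73e-08 in limma). Sult1a1, a sulfotransferase, fell by 5.22 and Mgst3, a membrane-bound glutathione transferase, by 4.78. Cyp2b10, which nuclear receptors induce in liver, went the other way and read 5.50, 4.93 and 4.64 in wild type, 5.53, 4.95 and 5.95 in adjacent tissue and 10.20, 9.31 and 9.07 in tumour (difference 4.50, SE 0.31, adjusted p = 3.75e-07 in limma). Genes of lipid absorption were split, with 9 of 18 lower and 3 higher. Rbp2, which carries retinol in absorptive cells, read 12.79, 12.23 and 12.46 in wild type and 5.51, 7.11 and 6.92 in tumour. Adjacent replicate 1 read 8.69 and the other adjacent arrays were higher, with 11.73 in replicate 2, so Rbp2 was already low in the adjacent tissue of the first animal. Pnliprp2, a lipase best known from pancreas, rose by 5.88, and the related Pnliprp1 read 7.05, 5.60 and 6.05 in wild type, 9.86, 8.67 and 12.33 in adjacent tissue and 13.85, 13.54 and 13.66 in tumour. Adjacent tissue was above wild type in all 3 arrays for Pnliprp1. The digestive enzymes of pancreas as a list did not follow, with 2 of 11 higher and 2 lower. Each is 18.2%, against 29.3% of all genes that rose and 20.1% that fell. Otc, an enzyme of the urea cycle in liver and gut, read 9.19, 10.45 and 9.91 in wild type and 3.82, 4.61 and 3.76 in tumour.

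Goblet cell and enteroendocrine genes were lower as well. Of 16 goblet cell genes 13 fell and none rose. Muc2, the main secreted mucin, read 13.02, 13.46 and 13.26 in wild type, 12.61, 12.13 and 12.38 in adjacent tissue and 11.83, 10.09 and 9.26 in tumour, and tumour replicate 1 kept the most (difference -2.85, SE 0.45, adjusted p = 0.000195 in limma). Spdef, the transcription factor that matures goblet cells, fell by 4.01 and Atoh1, which starts the secretory lineage, by 1.84. Spink4, a protease inhibitor of goblet cells, had a difference of 0.09 and did not pass the test.

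Of 18 enteroendocrine genes 13 fell and 2 rose. Insl5, a hormone of colonic L cells, read 12.69, 12.61 and 12.70 in wild type, 11.45, 11.68 and 11.59 in adjacent tissue and 7.81, 7.05 and 6.89 in tumour. The 3 groups were separate, with a fall in tumour by 5.41 (SE 0.28, adjusted p = 3.66e-08 in limma). Gcg, the precursor of GLP-1, fell by 4.56, Chgb by 2.74 and Sst, somatostatin, by 2.24. Pyy, another L cell hormone, fell by 1.50, and its 3 adjacent arrays all lay below tumour replicate 1. The members that rose were Isl1, a transcription factor of endocrine and neural cells, and Nts, neurotensin. Nts had a difference of 2.49, and its adjusted p in limma was 0.0691 to 0.0959 without wild type replicate 1 (difference 1.65), wild type replicate 3 (2.09) or tumour replicate 1 (2.22), while the difference was 3.74 without wild type replicate 2. Isl1 read 9.29, 8.08 and 9.55 in wild type, 10.64, 10.30 and 11.07 in adjacent tissue and 12.88 to 13.03 in tumour. Tuft cell genes split, with 6 of 12 lower and 2 higher. Dclk1, the kinase used to mark tuft cells, read 9.62, 9.71 and 10.10 in wild type and 7.85, 7.72 and 7.65 in tumour, while the actin regulator Avil rose by 4.25. Paneth cell and Reg antimicrobial genes went the other way, with 8 of 15 higher, 6 of them at least 2-fold, and 2 lower, and a median difference of 0.58. Lcn2, which binds bacterial siderophores, rose by 3.65 and Itln1, an intelectin, by 3.55, while Reg4 fell by 0.66.

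**Figure D3:**
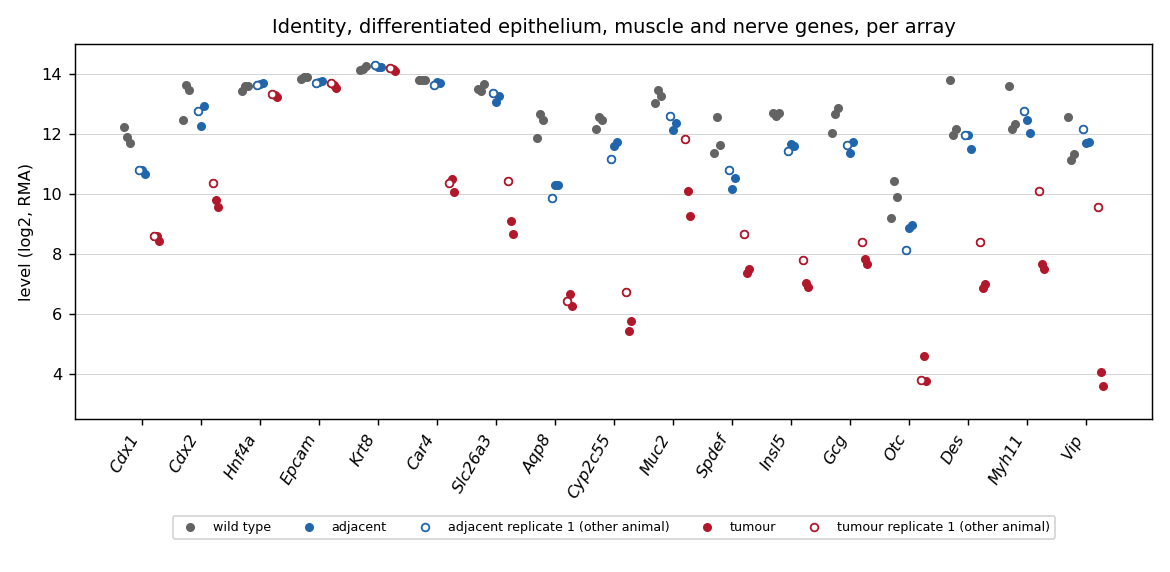
Level (log2 RMA, vertical axis) of identity, differentiated epithelium, muscle and nerve genes in the 3 wild type, 3 adjacent and 3 tumour arrays, with open circles for replicate 1 of the double mutant groups. Tumour arrays lie below the others for every gene shown except Krt8, by little for Epcam and Hnf4a, and tumour replicate 1 is the highest tumour array for Myh11 and Vip.

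Smooth muscle genes stood lower. All 15 measured smooth muscle genes fell, 14 of them at least 2-fold, with a median difference of -3.12. Des, the muscle filament desmin, read 13.79, 11.97 and 12.18 in wild type, 11.96, 11.97 and 11.49 in adjacent tissue and 8.42, 6.88 and 7.01 in tumour (difference -5.21, SE 0.47, adjusted p = 2.34e-06 in limma). Wild type replicate 1 was highest, and tumour replicate 1 was the highest of the tumours. The mean level of the smooth muscle list was 12.10, 10.81 and 10.94 in wild type, 11.36, 11.12 and 10.89 in adjacent tissue and 9.23, 7.97 and 7.92 in tumour. Without wild type replicate 1 all 15 still fell. Of 17 enteric neuron and glia genes 9 fell and none rose. Vip, a peptide of enteric neurons, read 12.56, 11.14 and 11.34 in wild type, 12.17, 11.70 and 11.74 in adjacent tissue and 9.58, 4.07 and 3.60 in tumour, so that the tumour of the first animal kept far more than those of the second. Stmn2 and Prph, proteins of axons, fell by 4.22 and 3.06. Rims1 and Kcnd3, of synapses and excitable membranes, are not on this list and fell by 5.32 and 4.30. The other probe sets of Kcnd3 had differences of 0.23, -0.19 and -0.21 and did not pass the test. How much muscle wall each sample held was not recorded in the labels, and its part in these falls was not tested.

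Stromal genes did not move as a block. Of 20 fibroblast and matrix genes 11 rose and 6 fell. Pdgfra, a receptor of subepithelial fibroblasts, read 10.48, 10.37 and 10.57 in wild type, 11.55, 11.40 and 11.10 in adjacent tissue and 12.21, 11.85 and 11.56 in tumour, and rose by 1.40. Col18a1, the basement membrane precursor of endostatin, rose by 2.19, Col1a1 by 0.85 and Vim by 0.68. Dpt, dermatopontin, fell by 2.18, Fap, fibroblast activation protein, by 1.56 and Postn, periostin, by 1.44. Of 18 endothelial genes 7 rose and 5 fell. Angpt2, an angiopoietin of remodelling vessels, read 6.64, 6.11 and 6.55 in wild type, 7.51, 7.58 and 7.45 in adjacent tissue and 10.90, 10.26 and 10.57 in tumour (difference 4.14, SE 0.20, adjusted p = 2.38e-08 in limma). Esm1, a proteoglycan of endothelial tip cells, rose by 3.21 and Vegfa by 1.41, whereas the general endothelial genes Pecam1 and Kdr fell by 1.08 and 1.03. Prox1, a factor of lymphatic endothelium that is also known as a beta-catenin target in gut tumours, rose by 4.99.

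Among immune cells, genes of mast cells and neutrophils were higher. Of 12 mast cell genes 7 rose and none fell. Ms4a2, a chain of the high-affinity IgE receptor, read 4.64, 5.13 and 4.59 in wild type, 5.53, 4.66 and 8.18 in adjacent tissue and 11.64, 11.22 and 12.15 in tumour, with all 3 tumours high. The partner chain Fcer1a was uneven: 4.32, 5.52 and 4.79 in wild type and 11.56, 6.51 and 7.13 in tumour. Cpa3, the carboxypeptidase of mast cell granules, likewise read 12.15 in tumour replicate 1 and 7.90 and 7.50 in the tumours of the other animal, against 4.99 to 5.78 in wild type. Without tumour replicate 1 the differences of Cpa3 and Fcer1a were 2.35 and 1.95 instead of 3.83 and 3.52, with adjusted p of 0.00275 and 0.0226 in limma. The mean of the list was 10.25 in tumour replicate 1 and 7.97 and 7.96 in the others, and 6.23 to 6.75 in wild type. The median difference of this list, 2.35, was -0.20 with the control covariate.

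Neutrophil genes showed the reverse order between the animals. Of 16 measured 12 rose, 11 of them at least 2-fold, and none fell. S100a8, a calgranulin subunit, read 5.66, 6.57 and 6.90 in wild type, 8.18, 9.66 and 12.54 in adjacent tissue and 11.50, 13.66 and 13.77 in tumour. Adjacent replicate 3 exceeded tumour replicate 1 for this gene. The mean of the list was 5.20 to 5.79 in wild type, 7.47 in tumour replicate 1 and 8.46 and 8.68 in the other tumours. The median difference of tumour replicate 1 from the mean of the other tumours was -0.996. Clec4e, a receptor of myeloid cells, rose by 4.03 and the chemokine receptor Cxcr2 by 2.31, while the granule enzymes Mpo and Elane did not pass the test, with differences of -0.38 and 0.16.

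Macrophage and T cell genes went both ways. Of 17 macrophage genes 7 rose and 3 fell: Arg1, arginase, rose by 3.95, Msr1, a scavenger receptor, by 1.56 and Csf1r by 0.93, while Cd163, of resident macrophages, fell by 3.53. Of 17 T cell and cytotoxic genes 3 rose, or 1 without wild type replicate 1, and 3 fell, among them Prf1, perforin, down by 1.54. Each count of 3 is 17.6%, against 29.3% of all genes that rose and 20.1% that fell. Of 12 B cell genes 3 fell, or 5 without wild type replicate 2, and the wild type arrays themselves differed, with list means of 7.10, 6.51 and 8.35. Plasma cell genes fell in 8 of 12, and Mzb1, a chaperone of antibody secretion, read 11.11, 11.54 and 11.64 in wild type, 9.83, 10.40 and 10.22 in adjacent tissue and 8.15, 7.37 and 7.77 in tumour. The alpha heavy chain gene Igha fell by 0.30.

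Signals that draw myeloid cells were high. Of 25 measured cytokines and chemokines of inflammation 16 rose, all at least 2-fold, and 2 fell, and the tumour arrays lay above all 12 others for 16. Cxcl2, a ligand of Cxcr2, read 3.65, 3.77 and 3.67 in wild type, 4.78, 4.69 and 8.30 in adjacent tissue and 10.18, 9.99 and 10.76 in tumour (difference 6.62, SE 0.69, adjusted p = 7.27e-06 in limma). Cxcl5, Cxcl3 and Cxcl1, which use the same receptor, rose by 6.01, 5.76 and 4.18. Il23a, the specific subunit of interleukin 23, read 4.47, 4.97 and 4.75 in wild type, 5.59, 4.78 and 6.14 in adjacent tissue and 9.40, 9.27 and 9.62 in tumour. Il33, an alarmin, rose by 3.48, Il11 by 2.38, Tnf by 1.49 and Il17a by 1.45. Cxcl12, a chemokine of stromal cells, fell by 2.08 and Ccl20 by 1.09. Ccl20 had a difference of -0.69 without wild type replicate 3 and of -0.95 without tumour replicate 2, with adjusted p of 0.0856 and 0.0696 in limma. Of 16 interferon response genes none rose and 4 fell, and this count was 8 without wild type replicate 1, 1 without wild type replicate 2 and 2 without tumour replicate 1. Wild type replicate 2 had the highest mean of that list, 11.12 against 8.52 and 9.62.

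**Figure D4:**
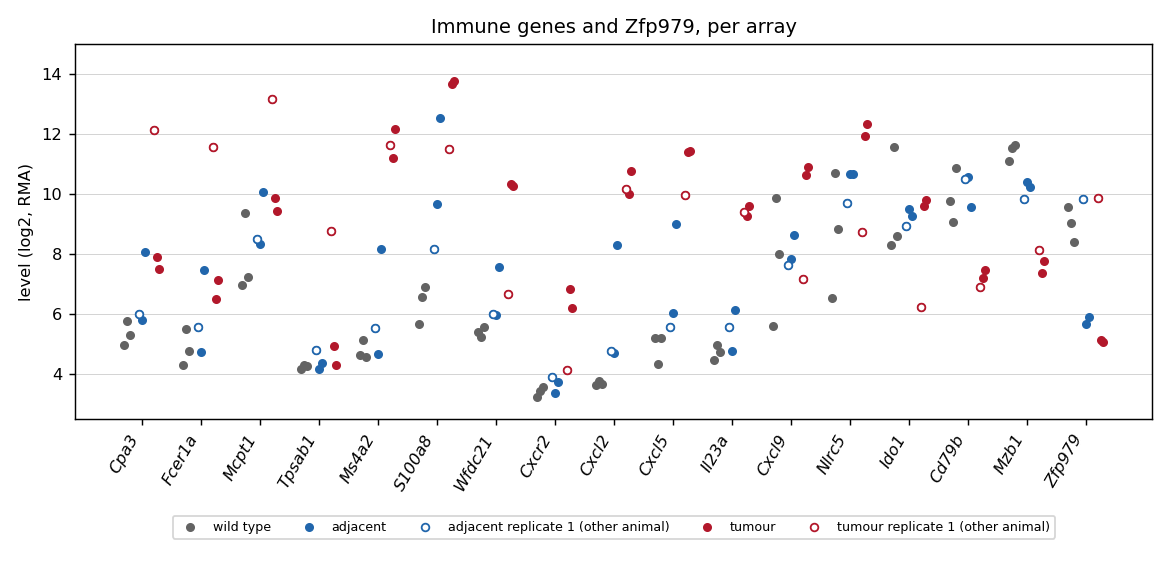
Level (log2 RMA, vertical axis) of immune genes and Zfp979 in the 3 wild type, 3 adjacent and 3 tumour arrays, with open circles for replicate 1 of the double mutant groups. Tumour replicate 1 is above the other tumours for Cpa3 (12.15 against 7.90 and 7.50), Fcer1a, Mcpt1 and Tpsab1 and below them for S100a8, Wfdc21, Cxcr2, Cxcl9, Nlrc5 and Ido1.

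Enzymes that remodel the matrix rose in 12 of 19 cases and fell in 2 cases. Mmp10, stromelysin 2, read 6.92, 9.61 and 8.27 in wild type, 9.25, 9.15 and 12.63 in adjacent tissue and 13.04, 13.20 and 13.28 in tumour. Mmp9, gelatinase B, averaged 7.36 in wild type and read 12.18, 12.46 and 12.38 in tumour (difference 4.98, SE 0.63, adjusted p = 3.11e-05 in limma). Mmp12, Adam12 and Mmp13 rose by 5.23, 5.25 and 4.32. For the prostaglandin list 3 of 12 genes rose and 4 fell. Ptgs2, cyclooxygenase 2, rose by 1.91 and Ptges, which makes prostaglandin E2, by 1.46. Ptgs2 had a difference of 1.52 and an adjusted p of 0.0587 in limma without wild type replicate 3. Hpgd, which degrades it, read 12.96, 12.54 and 12.39 in wild type, 12.67, 12.89 and 12.87 in adjacent tissue and 10.71, 10.27 and 10.03 in tumour, and fell by 2.29. The importer Slco2a1 fell by 2.07 and the receptor Ptger3 by 3.77, while the receptor Ptger4 had a difference of 0.18 and did not pass the test.

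The hedgehog ligands went opposite ways. Ihh, the ligand of normal colon epithelium, read 10.10, 8.66 and 9.59 in wild type and 7.81, 7.43 and 7.31 in tumour, a fall by 1.93. Shh, the ligand of foregut and developing gut, read 5.21, 7.71 and 7.15 in wild type, 7.32, 6.50 and 8.92 in adjacent tissue and 12.15, 11.90 and 11.97 in tumour (difference 5.32, SE 0.70, adjusted p = 4.57e-05 in limma). The receptor Ptch1 and the transducer Smo rose by 1.15 and 2.11, while Hhip, a target that binds the ligands, fell by 1.53. In the family of bone morphogenetic protein and transforming growth factor genes, 12 of 23 rose and 4 fell. Bmp7 rose by 3.77 and the activin subunits Inhbb and Inhba by 3.75 and 2.72. Bmp2, of surface colonocytes, fell by 0.74.

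Mitochondrial genes were slightly lower. Of 26 subunits of oxidative phosphorylation 16 fell and none rose, with a median difference of -0.38, and 4 fell at least 2-fold. Uqcrc1, a core subunit of complex III, read 12.62, 12.55 and 12.22 in wild type, 10.96, 11.28 and 11.05 in adjacent tissue and 10.65, 10.59 and 10.48 in tumour. Its companion subunit Uqcrc2 had a difference of 0.21 and did not pass the test. Fatty acid oxidation and ketogenesis genes fell in 10 of 16, with Acads down by 2.53 and Bdh1 by 2.33. Of 16 glycolysis and glucose uptake genes 6 rose and 3 fell, and the lactate exporter Slc16a3 rose most, by 2.85.

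Members of 1 complex disagreed in some cases, and there adjacent tissue resembled tumour. C1qa, a chain of complement C1q, read 11.37, 11.16 and 10.50 in wild type, 7.52, 7.38 and 7.07 in adjacent tissue and 6.89, 6.77 and 7.09 in tumour. The chains C1qb and C1qc had differences of 0.47 and -0.18, and the most variable probe set of C1qb had one of -0.55. Of 20 ribosomal protein genes 8 fell, 2 of them at least 2-fold, and 5 fell without tumour replicate 2. Rps14 read 13.77, 13.74 and 13.60 in wild type, 11.71, 12.04 and 12.10 in adjacent tissue and 11.56, 11.28 and 11.55 in tumour, while Rps4x had a difference of 0.03. Id1, an inhibitor of differentiation factors, fell by 3.24 and in adjacent tissue stood lower than wild type by 2.81, whereas its relative Id2 rose by 1.36. For C1qa, Rps14 and Id1 the means of Olfm4 mutants were also below wild type. They were 8.78 against 11.01, 13.06 against 13.70 and 11.03 against 11.94. The bacterial control difference was 2.64 in Olfm4 mutants and 1.99 in wild type, and its part here was not tested. Probe sets of 1 gene also disagreed at times. Of 2854 further probe sets for genes that rose at least 2-fold, 71.0% had the same sign, 41.3% rose and 8.76% fell, and of 1587 for genes that fell at least 2-fold 76.1%, 49.5% fell and 4.54% rose.

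**Figure D5:**
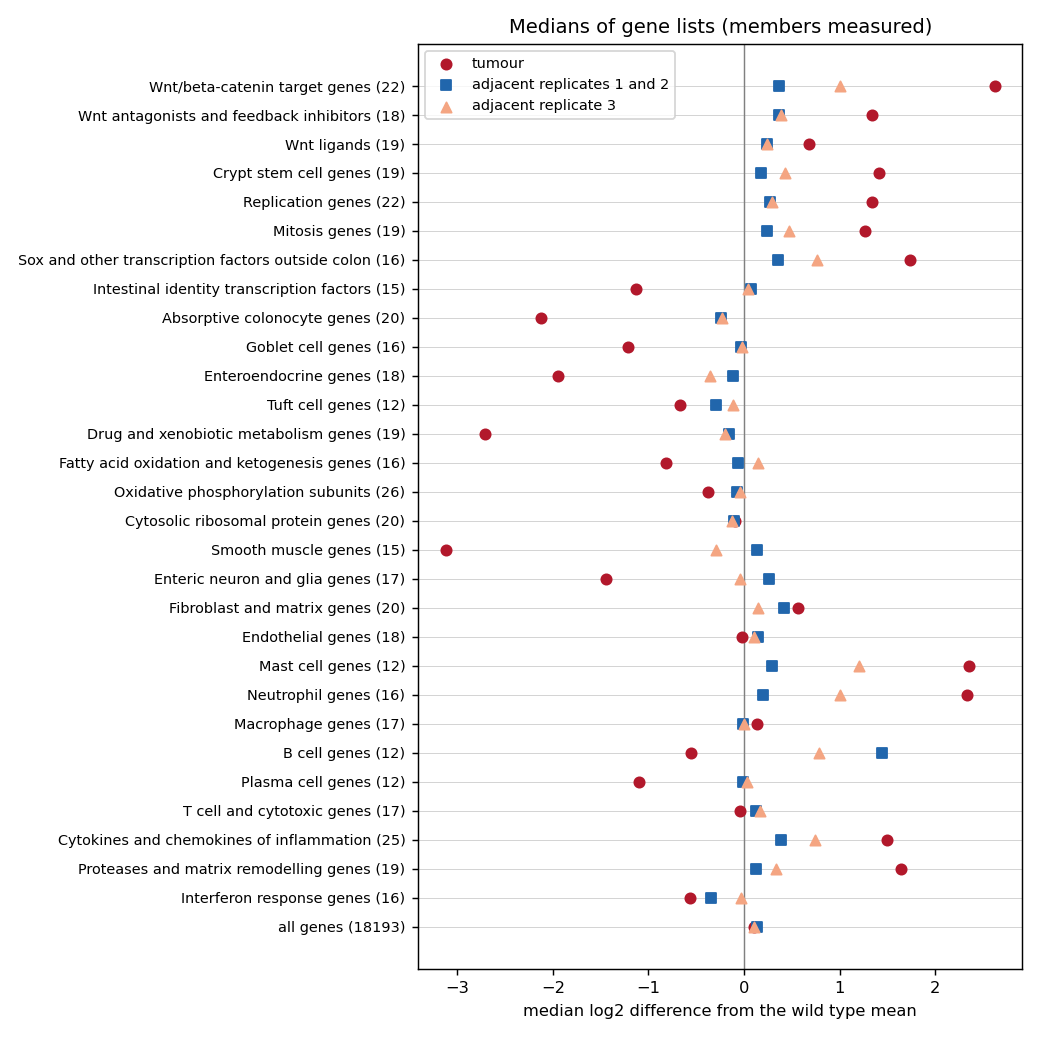
Median log2 difference from the wild type mean (horizontal axis) of the measured members of gene lists, for tumour, for adjacent replicates 1 and 2 together and for adjacent replicate 3. Tumour medians run from -3.12 for smooth muscle to 2.62 for Wnt targets, and the median of adjacent replicates 1 and 2 farthest from 0 among the lists shown is that of B cell genes, 1.44.

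Among single genes, the largest increase of all was that of Otop1, a proton channel, which read 3.81, 3.75 and 4.57 in wild type, 6.61, 4.39 and 8.94 in adjacent tissue and 12.59, 12.38 and 12.59 in tumour. Slc30a2, a zinc transporter, read 5.38, 5.30 and 5.00 in wild type and 12.59, 12.66 and 12.90 in tumour. It belongs to 18 metal handling genes of which 4 rose and 7 fell. Of 17 claudin and junction genes 3 rose and 7 fell, or 4 without tumour replicate 3. Cldn6, a claudin of embryonic epithelium, rose by 6.08, while the claudins Cldn15 and Cldn7 fell by 3.98 and 2.24. Erich3, Tex15 and Clstn2, the last a synaptic cadherin, rose by 6.84, 6.06 and 6.61. Another probe set of Erich3 rose by 3.83, and a further one had a difference of 0.14 and did not pass the test. For Clstn2 the adjacent arrays read 5.28, 5.05 and 5.56, all above the wild type levels of 4.99, 4.09 and 3.74. Synpr, a synaptic vesicle protein, was the largest increase among genes whose adjacent mean lay within 0.5 of wild type apart from Evx1os, an antisense transcript of a homeobox gene. Synpr read 5.18, 4.72 and 4.92 in wild type, 5.05, 4.84 and 5.18 in adjacent tissue and 9.07, 9.88 and 10.63 in tumour. The transcription factors Irx4 and Six4 and the splicing factor Rbm11 belonged to the same group and rose by 4.42, 4.12 and 4.33.

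The tumours of the 2 animals differed in further genes. The median difference of tumour replicate 1 from the mean of the other tumours was 1.31 for smooth muscle genes. It was 0.37 for fibroblast and matrix genes, 0.65 for enteroendocrine genes and -0.83 for interferon response genes. No median over all genes is given beside these values, so they have no background. Cxcl9, an interferon-induced chemokine, read 7.17 in tumour replicate 1 and 10.64 and 10.90 in the others, and Nlrc5, an activator of MHC class I genes, 8.73 against 11.93 and 12.34. Neither passed the test over the 3 tumours. Without tumour replicate 1 the differences were 2.95 and 3.45. That leaves out the tumour array where both were lowest and keeps 2 arrays of 1 animal, so a test there decides nothing. Without wild type replicate 2 the differences were 2.76 and 3.32 (adjusted p = 0.0462 and 0.0134 in limma). Zfp979 followed the animal in both tissues, with 9.85 in adjacent and 9.87 in tumour tissue of the first animal and 5.66, 5.90, 5.14 and 5.06 in the 4 arrays of the second. Wild type mice read 9.56, 9.04 and 8.41. Without tumour replicate 1 Zfp979 had a difference of -3.90, which rests on 2 tumour arrays of 1 animal. With 1 tumour array of the first animal the differences between the animals have no test.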

How the data were processed

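RNA was extracted with Trizol and labelled as biotinylated cRNA, per the labels' protocols, and hybridised to Affymetrix mouse arrays. The authors deposited log2 expression values made with RMA and Partek 6.5, per the submitters' processing notes, and no scanner files were used here. RMA sets all arrays to 1 distribution, so values are relative within an array and no depth applies. Probe sets were named from GEO's platform annotation: 34945 of 45101 had 1 symbol, 932 several and 9160 none, and 64 were controls. Each of 18193 genes was represented by its probe set of highest mean over all arrays. Group means of 5 groups were fitted with limma 3.58.1 in R 4.3.3 (lmFit and eBayes) with Benjamini-Hochberg adjustment, and the script was tested on simulated data. The comparison and the 53 gene lists were chosen with earlier results of these data known. Genes were named by size of change, by list and by a fixed set, with further list members named after their values were seen. Since 2 tumour arrays share an animal, p-values measure the spread between arrays, which is partly technical. Alternatives varied the probe set, normalization, filter, prior, weights, arrays, animal and control covariate.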

Additional observations from a re-analysis of the deposited data

How the results depend on the processing

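The counts of 5334 genes higher, 3662 lower and 4598 at least 2-fold different stayed within 1.5 times under 10 of 12 settings other than leaving out arrays. Among genes with a mean above the median, where fewer genes are tested, 3222 rose and 2727 differed at least 2-fold. With the bacterial control difference as a covariate, which runs with the groups, 0 genes rose, 1 fell and 1 differed at least 2-fold in limma, against 8996 called without it. At an unadjusted p under 0.05 there were 1347 genes with the covariate and 10065 without, and the medians of 11 of 53 lists changed sign. Leaving out 1 array gave 4751 to 5056 genes higher, 3185 to 3512 lower and 4377 to 4701 at least 2-fold. With the animal as a random block 4941 rose and 3366 fell. The share of the shift seen in adjacent tissue without adjacent replicate 3, an alternative chosen after seeing the data, was 0.394 and 0.363.

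With the covariate the difference turned, with no call, to 1.65 for C1qa, 0.90 for Ccl20, -0.16 for Cdc20, -0.49 for Cenpf, -0.56 for Cpa3, -1.57 for Fcer1a, -0.84 for Fzd3, -0.19 for Hoxa9, 1.53 for Id1, -1.01 for Itln1, -1.14 for Mcm4, -0.56 for Mcpt1, -0.84 for Mmp13, 0.16 for Nrarp, 1.16 for Pecam1, 0.071 for Pyy, 0.50 for Reg4, -0.56 for Wnt16 and -0.025 for Wnt9b. The mean of all probe sets gave -0.32 for Apc and -0.84 for Ctnnb1. The most variable probe set gave -2.21 for Apc, -0.55 for C1qb (the same without suffixed probe sets), -1.15 for Cd44, -2.04 for Ctnnb1, 0.011 for Epcam and -0.45 for Sox4. The cause was not tested. No paired analysis was possible because replicate numbers follow accession order and tumour and wild type arrays came from different animals.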

Other observations

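Of 16 clock genes 4 fell and none rose, against 20.1% and 29.3% of all genes, among them Nr1d1, a repressor of the clock, by 3.21 and Tef by 1.21. Of 18 Notch pathway genes 9 rose and 3 fell, with Hey1, a target of Notch, up by 1.78 and the feedback inhibitor Nrarp down by 1.78.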
